A study of Mus musculus with 14 samples.

Results

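The nuclear genome encodes most subunits of the 5 oxidative phosphorylation complexes, and their transcripts were followed here across mouse fibroblasts, the induced pluripotent stem cells (iPSC) made from them, and embryonic stem cells (ESC). Members were all probes whose gene symbol began with Ndufa, Ndufb, Ndufc, Ndufs, Ndufv, Sdh, Uqcr, Cox4, Cox5, Cox6, Cox7, Cox8 or Atp5. The rule looked at symbols only and gave 89 of the 16593 genes named on the array, through 111 of its 25697 probes. A probe entered the tests when some group had all its arrays at a detection p under 0.05, which left 98 probes for 81 of these genes, out of 14742 probes for 10004 genes. Complex I held 49 tested probes for 38 genes, complex II 8 probes for 7 genes, complex III 7 probes for 6 genes, complex IV 18 probes for 15 genes and complex V 16 probes for 15 genes. Assembly factors that share the symbols counted as members, 5 genes in complex I and 4 in complex II. No probe passed the detection filter for Ndufs1, Uqcrfs1, Uqcrq, Cox4i2, Cox7b2, Cox8b, Cox8c or Atp5k, so these 8 genes have no test.

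Total RNA was measured on 14 bead arrays (Illumina MouseRef-8 v2.0) in 6 groups. A-iPSC-ZSCAN10 (2 arrays, A-iPSC-ZSCAN10-3 and A-iPSC-ZSCAN10-7) were iPSC from fibroblasts of the tail tip skin of 1.5-year-old B6CBAF1 mice, made with the retroviral vectors pEYK-mMYC, pMX-mKLF4, pMX-mOCT4 and pMX-mSOX2 and with a doxycycline-inducible ZSCAN10, induced in 2 μg/ml doxycycline. A-iPSC (A-iPSC-16 and A-iPSC-19) came from the same kind of fibroblasts and the same 4 factors without ZSCAN10. Y-iPSC (Y-iPSC-12 and Y-iPSC-4) carried the same 4 factors in fibroblasts from skin of B6CBAF1 embryos at E17.5. ESC (ESC-D and ESC-H) were mouse embryonic stem cells whose strain the labels do not give. A-SC (3 arrays: 1 without a code, A-SC-1.3 and A-SC-1.4) were the aged tail tip fibroblasts themselves, and Y-SC (3 arrays: 1 without a code, Y-SC-16 and Y-SC-17) the embryonic skin fibroblasts. ESC and iPSC grew in serum with the cytokine LIF and fibroblasts in serum alone. Donor age cannot be told apart from developmental stage and body site, and ZSCAN10 cannot be told apart from doxycycline. Nothing in the labels tells if replicate arrays came from different cultures or mice, and the p-values therefore reflect only how much these samples vary, which may be technical.

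Oxidative phosphorylation couples the oxidation of NADH and succinate to ATP synthesis across the inner mitochondrial membrane. Complexes I and II pass electrons to coenzyme Q, complex III passes them to cytochrome c, complex IV passes them to oxygen, and complex V, the ATP synthase, makes ATP as protons return. Some complex IV subunits exist as tissue isoforms from separate genes. Pluripotent stem cells are known for a high glycolytic rate, and reprogramming of fibroblasts for a change in mitochondrial shape and use.

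Between 47.6% and 52.3% of all probes were detected per array, and 95 to 98 of the 111 member probes. Replicate arrays correlated over the tested probes at 0.9768 in A-iPSC-ZSCAN10, 0.9784 in A-iPSC, 0.9321 in Y-iPSC, 0.9858 in ESC, 0.9226 to 0.978 in A-SC and 0.9344 to 0.9671 in Y-SC. Signals of 4 fibroblast arrays (A-SC-1.3, A-SC-1.4, Y-SC-16 and Y-SC-17) were exported with 1 decimal and the other 10 were not, which was examined as a possible technical batch. The pluripotency factor Pou5f1 was detected on every iPSC and ESC array. Nanog averaged 6.01 in A-iPSC-ZSCAN10, 4.72 in A-iPSC, 6.47 in Y-iPSC, 12.09 in ESC, 4.86 in A-SC and 4.55 in Y-SC (log2 intensity), and no A-iPSC array detected it. Marker genes of keratinocytes, 8 on the array, summed to a normalised intensity of 6929 to 10706 in A-iPSC-ZSCAN10, 131 to 142 in A-iPSC, 10436 to 11945 in Y-iPSC, 1554 to 2739 in ESC and 85.3 to 347.1 in A-SC. In Y-SC that sum was 98.6 and 183.9 on Y-SC-17 and Y-SC-16, and 1693 on the uncoded array, which detected all 8. The 5 macrophage markers summed to 1031 to 5103 in Y-SC and to at most 469.5 on each array of the other groups, and their part in the comparisons with Y-SC was not tested. The 8 fibroblast markers summed to 2053 to 2776 in A-iPSC-ZSCAN10, 455 to 920 in A-iPSC, 404 to 1938 in Y-iPSC, 1673 to 1792 in ESC, 22918 to 29040 in A-SC and 16299 to 35064 in Y-SC. In bulk RNA of this kind, fewer cells of a type and less RNA per cell cannot be told apart.

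Most oxidative phosphorylation transcripts stood at a high level that changed little between the 6 groups. Their median over all arrays was a log2 intensity of 11.395, against 7.32 for all tested probes. The span of a probe, its highest minus its lowest group mean, had a median of 0.73 on the log2 scale over the members and 1.32 over all tested probes. It was under 1 for 75 of the 98 members (76.5%), against 32.4% of all tested probes. The median spread within groups was also smaller, at an SD of 0.253 over the members and 0.351 over all tested probes. Spans were not compared with those of probes of like level. Only Cox7a1 (5.04) and Cox6b2 (4.64), both isoform subunits of complex IV, spanned more than 2 log2 units, which is 2.04% of the members against 26.3% of all tested probes. Complex III was the narrowest, with a median span of 0.40 and all 7 tested probes under 1. The other medians were 0.78 in complex I, 0.79 in complex II, 0.58 in complex IV and 0.79 in complex V.

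**Figure D1:**
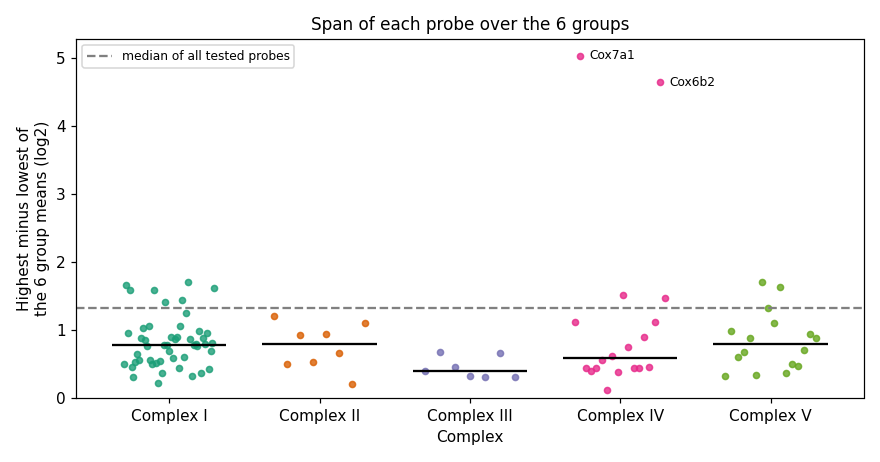
Span of each tested oxidative phosphorylation probe over the 6 groups, in log2 units, by complex (x axis). Each point is a probe, black lines are the complex medians (0.78, 0.79, 0.40, 0.58 and 0.79 for complexes I to V), and the dashed line is the median of all tested probes (1.32). Cox7a1 and Cox6b2 are the only points above 2.

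At the steady end stood Cox4i1, which encodes subunit 4 of complex IV, with a span of 0.11 and values between 12.36 and 13.02 on all 14 arrays. Atp5b, the catalytic beta subunit of the ATP synthase, spanned 0.34, and Uqcrh, the hinge protein of complex III, 0.33. Before normalization Atp5b read 20028 to 23848 on the 1-decimal arrays and 6809 to 13019 on the others. Quantile normalization gives probes of like rank like values on every array, so the narrow span of so bright a probe depends on that step. Ndufa13 (0.22), Ndufs3 (0.32) and Ndufa10 (0.36) of complex I were as narrow. After Cox7a1 and Cox6b2, the widest spans were those of Ndufb11 (1.71), Atp5e (1.71), the dimmer probe of Ndufaf5 (1.67), Atp5g2 (1.63) and Ndufv3 (1.61). A-iPSC held the highest group mean for 36 members (36.7%, against 23% of all tested probes) and Y-iPSC for 22 (22.4%, against 11.4%). A-iPSC-ZSCAN10 held it for 21 (21.4%, against 9.82%). The lowest mean fell in ESC for 29 members (29.6%, against 22.3%), in A-SC for 31 (31.6%, against 20.8%) and in Y-SC for 23 (23.5%, against 12.7%). These shares describe order only, since most of the spans are small.

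**Figure D2:**
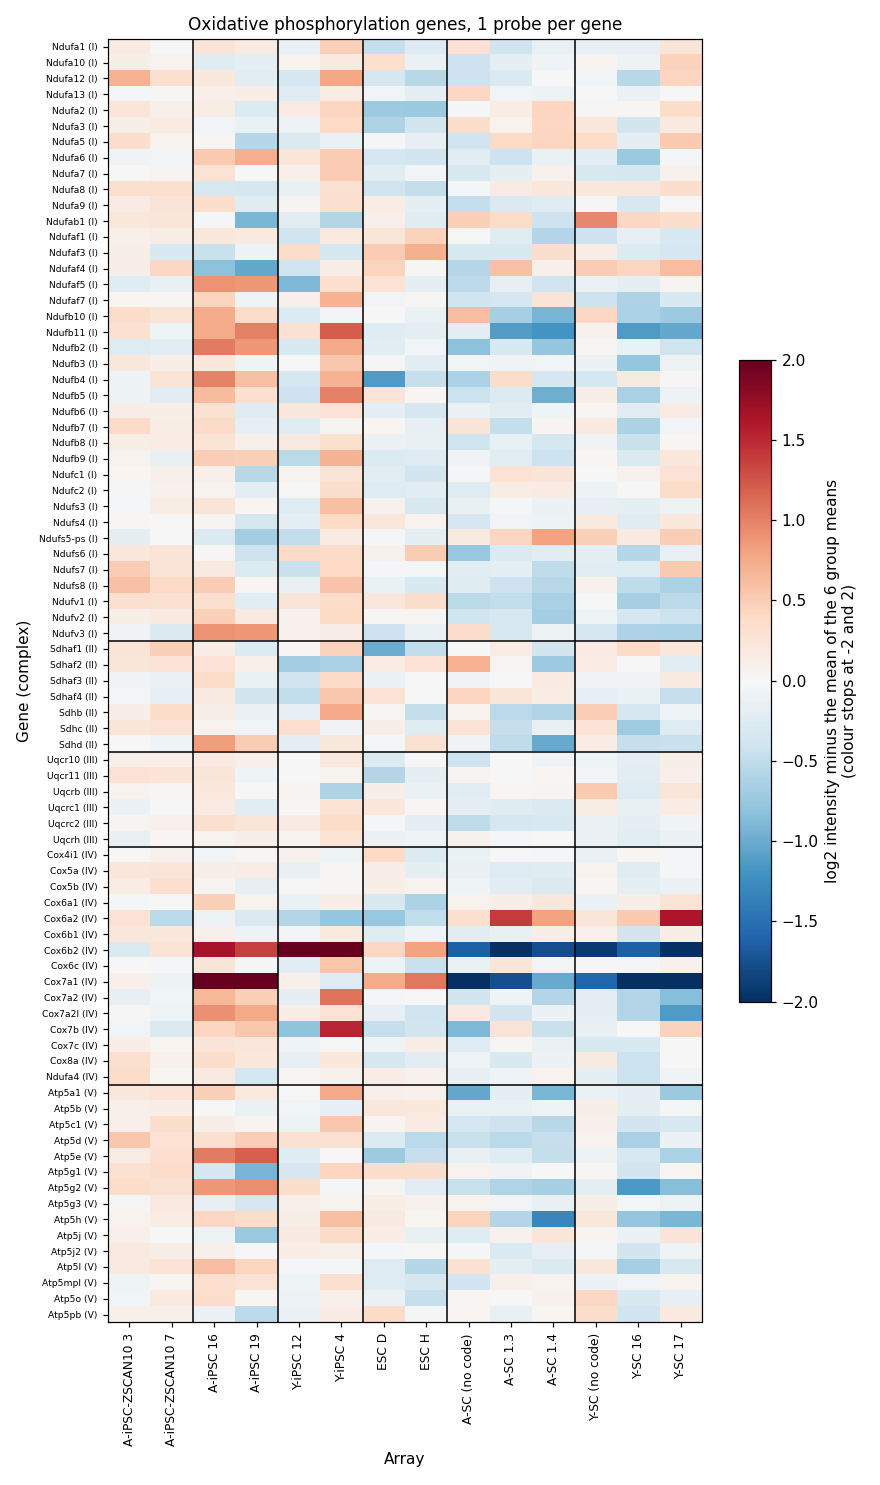
Log2 intensity of each oxidative phosphorylation gene (rows, by complex, 1 probe a gene) minus the mean of its 6 group means on the 14 arrays (columns: A-iPSC-ZSCAN10, A-iPSC, Y-iPSC, ESC, A-SC, Y-SC). Red is above and blue below the gene's mean, and the colour stops at 2 units on either side. Cox7a1 and Cox6b2 carry the deepest colours, and most rows are pale.

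Comparisons were contrasts of a single limma fit over all tested probes. The threshold for passing was an adjusted p (Benjamini-Hochberg) under 0.05. In A-iPSC against Y-iPSC, 3 members were higher (3.06%) where 6.04% of all tested probes were, and 0 were lower where 4.1% were. Those 3 were Cox7a1, Atp5e and the dimmer probe of Ndufaf5. In A-iPSC-ZSCAN10 against A-iPSC, 2 members were higher (2.04%, background 7.33%) and 6 lower (6.12%, background 8.37%). The higher pair was Atp5g1 and Ndufaf4, and the lower set Cox7a1, Ndufaf5, Ndufb2, Cox6b2, Ndufv3 and Atp5e. Both comparisons rest on the same A-iPSC arrays, so their opposite directions are not independent. In A-iPSC-ZSCAN10 against Y-iPSC, 0 members were higher and 0 lower, with backgrounds of 0.631% and 0.712%. Unadjusted limma p-values there were under 0.05 for 4 members, and 13.1% of all tested probes, and the 95% interval of the log2 difference lay between -1 and 1 for 73 of 98 members. The shares of members that passed were below the background in each of these comparisons.

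Against ESC, 15 members were higher in A-iPSC (15.3%, background 17.2%) and 2 were lower (2.04%, background 17.7%). In Y-iPSC against ESC, 2 members were higher (2.04%, background 7.1%) and 0 lower (background 6.95%), namely Ndufa2 and Sdhaf1. In A-iPSC-ZSCAN10 against ESC, 4 were higher (4.08%, background 6.19%) and 0 lower (background 6.08%), namely Sdhaf1, Ndufa2, Atp5e and Ndufa8. The A-iPSC share of higher members was near its background and the other shares were below theirs. All 3 comparisons use the same ESC arrays.

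Against their fibroblasts of origin, 18 members were higher in A-iPSC (18.4%, background 17.6%) and 3 lower (3.06%, background 15.4%). In Y-iPSC against Y-SC, 8 were higher (8.16%, background 11.7%) and 2 lower (2.04%, background 11.7%). In A-iPSC-ZSCAN10 against A-SC, 7 were higher (7.14%, background 11.2%) and 0 lower (background 9.88%). Lower members were thus fewer, in share, than lower probes on the array in all 3 comparisons, and higher members were near or below the background. In A-SC against Y-SC, 0 members were higher and 0 lower, with backgrounds of 0.19% and 0.224%, and 1 member had an unadjusted limma p under 0.05, against 10.3% of all tested probes. The 95% interval of that difference lay between -1 and 1 for 84 of 98 members. The change from A-SC to A-iPSC was larger than that from Y-SC to Y-iPSC for 2 members (2.04%, background 2.39%), Cox7a1 and the dimmer probe of Ndufaf5, and smaller for 0 (background 1.42%).

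**Figure D3:**
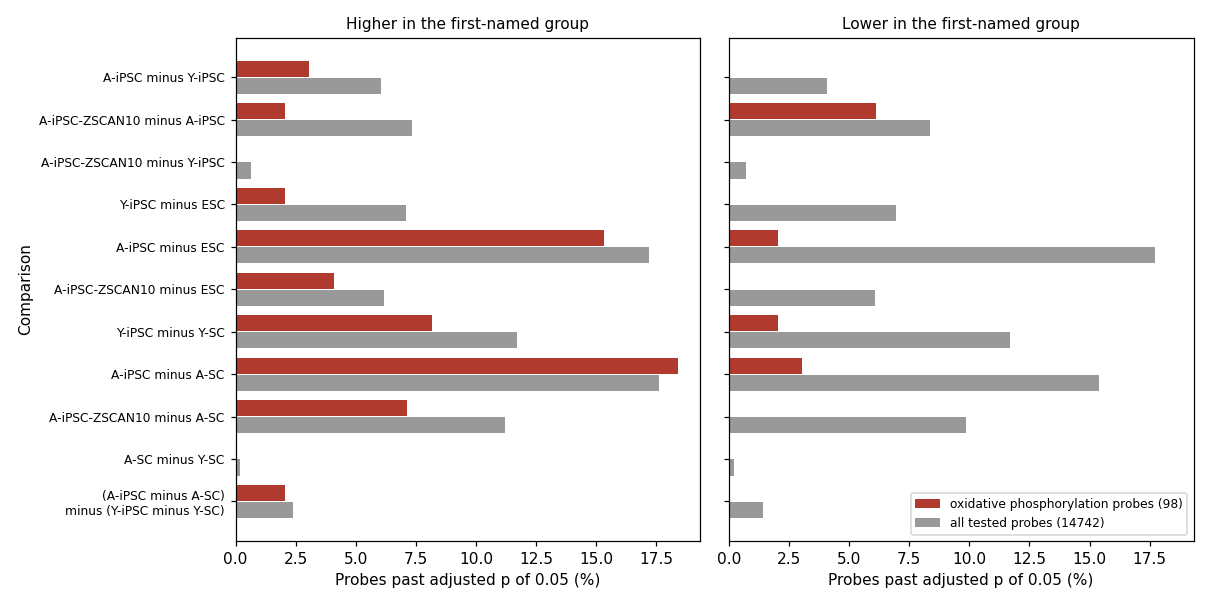
Percent of probes past an adjusted p of 0.05 (x axis) in each comparison (y axis), higher in the group named first on the left and lower on the right. Red bars are the 98 oxidative phosphorylation probes and grey bars all 14742 tested probes. The red bar exceeds the grey only for probes higher in A-iPSC than in A-SC, 18.4% against 17.6%.

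Many of these calls were lost with fewer arrays. Of 74 member calls summed over the comparisons, 14 were kept in every fit that left out 1 array and in every other alternative. Leaving out 1 array cost 60 of them in at least 1 fit, 14 whichever array of the comparison was left out and 10 for exactly 1 array. The log2 change without an array was 0.655 to 1.35 times that with all arrays, so those losses came with changes of similar size. Other alternatives also cost calls, and for the genes named below these further losses are not listed in full. In A-iPSC against Y-iPSC only Cox7a1 was kept, and the count was 1 without A-iPSC-19 and 5 without Y-iPSC-12. The 0 of A-iPSC-ZSCAN10 against Y-iPSC became 1 without Y-iPSC-12. In A-iPSC-ZSCAN10 against A-iPSC only Cox7a1 was kept, and the count was 2 when either A-iPSC-ZSCAN10 array was left out, 3 without A-iPSC-16 and 1 without A-iPSC-19. Leaving out Y-iPSC-12 raised the Y-iPSC against ESC count to 7, while leaving out Y-iPSC-4, ESC-D or ESC-H gave 0. The 17 calls of A-iPSC against ESC became 7 without A-iPSC-16, 7 without A-iPSC-19, 6 without ESC-D and 7 without ESC-H, and the 4 kept in all fits were Cox7a1, Atp5e, Ndufv3 and Ndufaf5. The 21 calls of A-iPSC against A-SC became 11 without A-iPSC-16 and 9 without A-iPSC-19, and the 6 kept were Cox7a1, Cox6b2, Ndufb2, Atp5g2, Atp5e and Ndufaf5. The 10 calls of Y-iPSC against Y-SC became 2 without Y-iPSC-4, 3 without Y-SC-16 and 4 without Y-SC-17, and Cox7a1 and Cox6b2 were kept. None of the 4 calls of A-iPSC-ZSCAN10 against ESC or of the 7 of A-iPSC-ZSCAN10 against A-SC was kept throughout, with 0 or 1 ESC call left without any array of that comparison, and 1 A-SC call left without A-iPSC-ZSCAN10-3 or A-iPSC-ZSCAN10-7 and 2 without A-SC-1.4.

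Complex IV held the largest changes, in genes for isoform subunits. The subunit 7a family has Cox7a1, the isoform of heart and skeletal muscle, Cox7a2, the widely expressed isoform, and Cox7a2l, which joins complex IV to complex III in supercomplexes. Subunit 6b has Cox6b1, the common form, and Cox6b2, known from testis. The bases before the start of Cox7a1, Cox7a2, Cox6b2 and Cox6b1 are shown with CpG dinucleotides in capitals. Each run is the 250 bases upstream of the RefSeq gene start on the gene's own strand (GRCm38.p6), at chr7:30183921-30184170 on the plus strand for Cox7a1, chr9:79759854-79760103 on the minus strand for Cox7a2, chr7:4753095-4753344 on the minus strand for Cox6b2 and chr7:30626115-30626364 on the minus strand for Cox6b1.
Cox7a1: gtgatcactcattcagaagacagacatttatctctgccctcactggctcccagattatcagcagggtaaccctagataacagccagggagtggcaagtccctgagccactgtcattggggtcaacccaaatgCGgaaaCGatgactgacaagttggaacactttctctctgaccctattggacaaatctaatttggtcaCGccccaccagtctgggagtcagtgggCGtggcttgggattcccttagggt
Cox7a2: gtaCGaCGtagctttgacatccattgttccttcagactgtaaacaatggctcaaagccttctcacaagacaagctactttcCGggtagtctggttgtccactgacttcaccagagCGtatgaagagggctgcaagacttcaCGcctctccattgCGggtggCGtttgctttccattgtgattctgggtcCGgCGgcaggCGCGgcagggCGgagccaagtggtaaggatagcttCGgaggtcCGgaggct
Cox6b2: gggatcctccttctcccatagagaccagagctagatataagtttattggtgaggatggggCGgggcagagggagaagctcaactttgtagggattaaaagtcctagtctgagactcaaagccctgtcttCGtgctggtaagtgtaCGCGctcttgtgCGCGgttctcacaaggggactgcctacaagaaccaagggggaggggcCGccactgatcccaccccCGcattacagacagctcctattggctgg
Cox6b1: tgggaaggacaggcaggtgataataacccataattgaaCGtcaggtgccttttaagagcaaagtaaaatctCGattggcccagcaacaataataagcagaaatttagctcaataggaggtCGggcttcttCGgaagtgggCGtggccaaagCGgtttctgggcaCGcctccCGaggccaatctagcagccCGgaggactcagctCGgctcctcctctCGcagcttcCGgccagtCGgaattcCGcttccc
The Cox7a1 stretch holds 4 CpG dinucleotides at 51.2% G and C, and that of Cox7a2 holds 14 at 54.8%. The Cox6b2 stretch holds 8 at 54.8%, and that of Cox6b1 holds 14 at 54%. Among other members, Cox7a2l, which passed in some comparisons, holds 13 in its stretch. Ndufc2, which passed in none, holds 4. Methylation was not measured on these arrays, and the counts describe sequence only. A link between CpG number and expression was not tested.

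Cox7a1 read 7.32 and 7.12 in A-iPSC-ZSCAN10, 10.18 and 10.13 in A-iPSC, 7.32 and 6.97 in Y-iPSC, 7.96 and 8.28 in ESC, 5.06, 5.46 and 6.22 in A-SC, and 5.64, 4.72 and 4.9965 in Y-SC (log2 intensity). Both A-iPSC arrays lay above every other array, both ESC arrays above the A-iPSC-ZSCAN10 and Y-iPSC arrays, and all fibroblast arrays below all others. Cox7a1 was 3.01 ± 0.38 log2 units higher in A-iPSC relative to Y-iPSC (± SE, limma adjusted p = 0.000655), an 8.07-fold difference. It was lower in A-iPSC-ZSCAN10 relative to A-iPSC, with a log2 change of -2.93 ± 0.38 (adjusted p = 0.00066). A-iPSC-ZSCAN10 and Y-iPSC did not differ by the test, at 0.08 ± 0.38 (adjusted p = 0.977). Against ESC it was 2.04 ± 0.38 higher in A-iPSC (adjusted p = 0.00186), while Y-iPSC stood at -0.98 ± 0.38 (adjusted p = 0.112) and A-iPSC-ZSCAN10 at -0.90 ± 0.38 (adjusted p = 0.153), neither of which passed.

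On reprogramming, Cox7a1 rose in all 3 kinds of iPSC relative to their fibroblasts. The increase was 4.58 ± 0.35 in A-iPSC against A-SC (limma adjusted p = 3.14e-06), 2.02 ± 0.35 in Y-iPSC against Y-SC (adjusted p = 0.00152) and 1.64 ± 0.35 in A-iPSC-ZSCAN10 against A-SC (adjusted p = 0.00683). The last lost its call without A-iPSC-ZSCAN10-3 (adjusted p = 0.0588). Detection in fibroblasts was partial, in 2 of 3 A-SC and 1 of 3 Y-SC arrays, and in the authors' normalized values the 3 sizes were smaller, at 3.00, 0.86 and 0.75, for a cause that was not tested. The A-iPSC increase exceeded the Y-iPSC increase by 2.55 ± 0.49 (adjusted p = 0.0163), a call lost without A-iPSC-16, A-iPSC-19 or Y-iPSC-4, where the highest adjusted p was 0.069. Between A-SC and Y-SC the difference of 0.46 did not pass (adjusted p = 0.652).

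Because Cox7a1 is known from muscle, muscle markers stand beside it. The 7 striated muscle markers on the array summed to a normalised intensity of 251.9 to 378.8 in A-iPSC-ZSCAN10, 215.1 to 263.1 in A-iPSC, 120.5 to 268.7 in Y-iPSC, 3907 to 4318 in ESC, 1874 to 2113 in A-SC and 532.8 to 2622 in Y-SC. Most of the sum in fibroblasts was Acta1, skeletal muscle actin, which averaged 5.62 in A-iPSC-ZSCAN10, 5.66 in A-iPSC, 5.48 in Y-iPSC, 10.02 in ESC, 10.90 in A-SC and 10.07 in Y-SC. Creatine kinase Ckm was detected on 0 arrays of any group, and the brighter probe of Myog, a muscle transcription factor, on 0 of 2 arrays in A-iPSC-ZSCAN10, 2 of 2 in A-iPSC, 0 of 2 in Y-iPSC, 1 of 2 in ESC, 2 of 3 in A-SC and 3 of 3 in Y-SC. That Myog probe averaged 5.39 in A-iPSC, close to the lowest detected signal of its arrays (5.06 and 5.14). A second Myog probe was detected on 0 arrays of each iPSC group. Mylpf, another of the muscle markers, averaged 7.79 in A-iPSC-ZSCAN10, 7.15 in A-iPSC and 6.73 in Y-iPSC. It averaged 11.53 in ESC, 4.73 in A-SC, where no array detected it, and 5.93 in Y-SC. Like Cox7a1, Mylpf was thus higher in each pluripotent group than in the fibroblasts. Among the iPSC, the brighter Myog probe and, by a small margin, Acta1 averaged highest in A-iPSC, as Cox7a1 did. Mylpf averaged highest in A-iPSC-ZSCAN10, so the muscle markers had no single order. Keratinocyte markers were low in A-iPSC where Cox7a1 was high, as given above, and the part of muscle or keratinocyte markers in the result was not tested.

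The other 7a genes had narrower spans, 1.12 for Cox7a2 and 1.47 for Cox7a2l, although wider than the median member. Cox7a2 read 8.73 and 8.84 in A-iPSC-ZSCAN10, 9.56 and 9.36 in A-iPSC, 8.70 and 9.98 in Y-iPSC, 8.86 and 8.88 in ESC, 8.51, 8.81 and 8.30 in A-SC, and 8.69, 8.30 and 8.04 in Y-SC. Its Y-iPSC arrays were far apart, and it passed in no comparison. Cox7a2l read 11.54 and 11.44 in A-iPSC-ZSCAN10, 12.44 and 12.27 in A-iPSC, 11.65 and 11.81 in Y-iPSC, 11.36 and 11.11 in ESC, 11.70, 11.14 and 11.40 in A-SC, and 11.33, 10.94 and 10.39 in Y-SC. A-iPSC was again the highest group, above every array of the others. Cox7a2l was 1.12 ± 0.30 higher in A-iPSC than in ESC (limma adjusted p = 0.0141), 0.94 ± 0.28 higher in A-iPSC than in A-SC (adjusted p = 0.0217) and 0.84 ± 0.28 higher in Y-iPSC than in Y-SC (adjusted p = 0.0458). Each of these calls was lost without A-iPSC-16 or A-iPSC-19, or, for the last, without either Y-iPSC array, Y-SC-16 or Y-SC-17. The calls against A-SC and Y-SC were also lost with export format as a block and without the 1-decimal arrays. The Y-SC call was lost too under median scaling, without the filter and with only the compared arrays. Its smallest log2 change over all alternatives was 0.40.

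**Figure D4:**
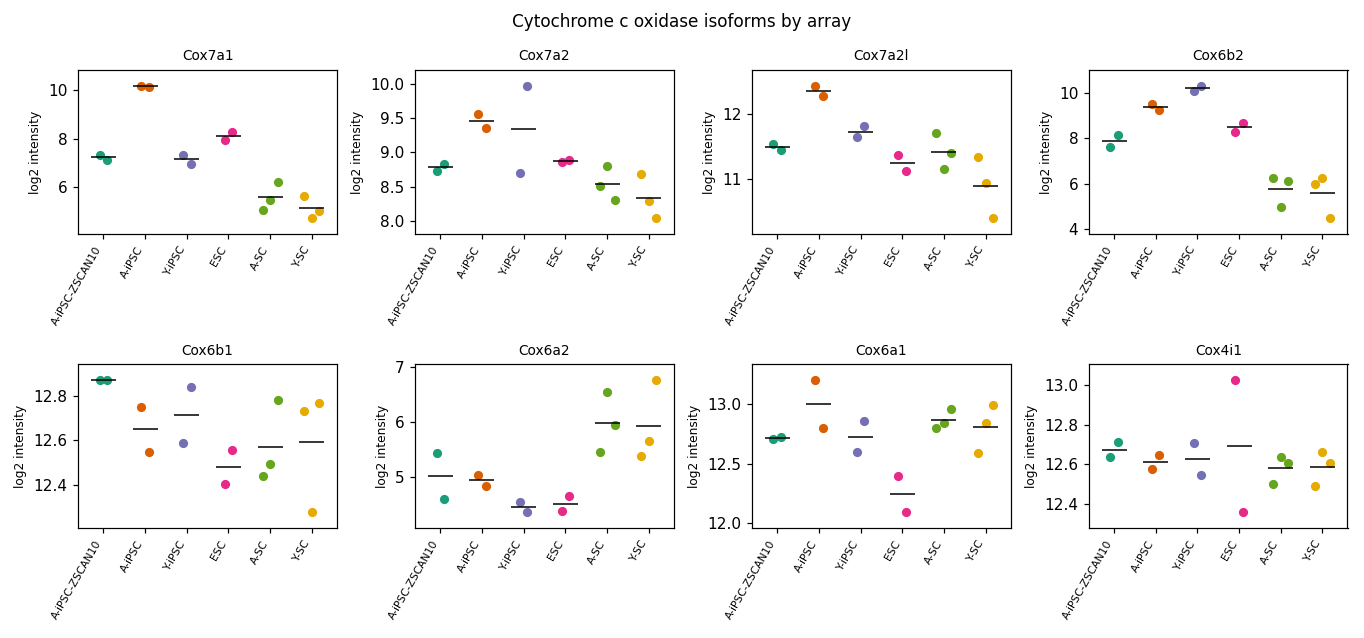
Log2 intensity of 8 genes for complex IV subunits on each array (points) with the group mean (line); groups on the x axis run from A-iPSC-ZSCAN10, A-iPSC and Y-iPSC to ESC, A-SC and Y-SC, and each panel has its own y range. Cox7a1 is highest in A-iPSC (10.18 and 10.13), Cox6b2 in Y-iPSC (10.08 and 10.34), and Cox4i1 stays between 12.36 and 13.02.

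Cox6b2 separated every pluripotent line from the fibroblasts and had a different order among the iPSC from Cox7a1. Its brighter probe read 7.61 and 8.17 in A-iPSC-ZSCAN10, 9.53 and 9.26 in A-iPSC, 10.08 and 10.34 in Y-iPSC, 8.30 and 8.70 in ESC, 6.26, 4.96 and 6.11 in A-SC, and 5.98, 6.25 and 4.47 in Y-SC. Y-iPSC was the highest group, A-iPSC followed, and 2 of 3 arrays in each fibroblast group detected the probe. It was 4.64 ± 0.51 log2 units higher in Y-iPSC than in Y-SC (limma adjusted p = 6.63e-05), 3.62 ± 0.51 higher in A-iPSC than in A-SC (adjusted p = 0.00027) and 2.11 ± 0.51 higher in A-iPSC-ZSCAN10 than in A-SC (adjusted p = 0.0131). The last was lost without A-iPSC-ZSCAN10-7 (adjusted p = 0.129) and with the export format as a block (adjusted p = 0.0755). In the authors' normalized values the sizes were 3.05, 2.25 and 1.10, for a cause that was not tested.

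Among pluripotent cells the brighter Cox6b2 probe passed in no comparison. The values were -2.32 ± 0.55 in A-iPSC-ZSCAN10 against Y-iPSC (limma adjusted p = 0.07), -1.51 ± 0.55 in A-iPSC-ZSCAN10 against A-iPSC (adjusted p = 0.0872) and 1.71 ± 0.55 in Y-iPSC against ESC (adjusted p = 0.0609). A dimmer probe of the gene, detected on 6 arrays in all, passed where the brighter did not. In A-iPSC-ZSCAN10 its level was lower than in A-iPSC by at least 1.74-fold (adjusted p = 0.0375) and at least 1.83-fold higher in A-iPSC than in ESC (adjusted p = 0.0256), with no A-iPSC-ZSCAN10 or ESC array detecting it. These bounds set the mean of the brighter group against the lowest detected signal on the arrays of the other. Both calls were lost in every fit that left out 1 array of either group, with adjusted p of up to 0.182, and in the authors' normalized values (adjusted p of 0.0954 and 0.0719). Like the brighter probe, it was higher in A-iPSC than in A-SC, at 0.84 ± 0.29 (adjusted p = 0.0424), a call lost in every alternative other than leaving out the uncoded A-SC array. The partner Cox6b1 stayed between 12.28 and 12.87 on all arrays and passed in no comparison.

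Cox6a2, the muscle isoform of subunit 6a, ran the other way. It read 5.43 and 4.60 in A-iPSC-ZSCAN10, 5.04 and 4.85 in A-iPSC, 4.56 and 4.36 in Y-iPSC, 4.39 and 4.66 in ESC, 5.46, 6.54 and 5.94 in A-SC, and 5.39, 5.66 and 6.76 in Y-SC. All 6 fibroblast arrays detected it, against 1 of 8 pluripotent arrays, so it entered the test only through the fibroblasts, where it is high. It was at least 1.99-fold lower in Y-iPSC than in Y-SC (limma adjusted p = 0.0251), a call lost without Y-iPSC-12, Y-iPSC-4 or Y-SC-17. That Cox6a2 call was also lost in the authors' normalized values, without the filter and with export format as a block. Fits with only the compared arrays or without the 1-decimal arrays lost it too. In A-iPSC its level was below that of A-SC by at least 1.84-fold, with an adjusted p of 0.0793. The fibroblasts also had a higher sum of striated muscle markers, mostly Acta1, than the iPSC. In ESC that sum was the highest of the groups, at 3907 to 4318, while Cox6a2 read only 4.39 and 4.66. The part of muscle markers in this result was not tested.

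The widely expressed partner Cox6a1 was 0.76 ± 0.24 higher in A-iPSC than in ESC (limma adjusted p = 0.0281), with 13.20 and 12.80 in A-iPSC against 12.40 and 12.09 in ESC. Its second probe gave 0.61 ± 0.22 (adjusted p = 0.0496), and neither passed under median scaling or without A-iPSC-16 or ESC-H, with adjusted p of up to 0.338. Cox8a lay between 12.22 and 13.00 and Ndufa4, a complex IV subunit despite its symbol, between 12.38 and 13.17, and neither passed in any comparison. Cox4i2, Cox8b and Cox8c, the isoform partners of Cox4i1 and Cox8a, were not detected in all arrays of any group.

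Complex V showed the second isoform family. Atp5g1, Atp5g2 and Atp5g3 encode the same mature c subunit of the membrane rotor with different import sequences. The upstream stretches of Atp5g1 and Atp5g2 are shown because these genes moved in opposite directions in A-iPSC. They are the 250 bases before the RefSeq start (GRCm38.p6), with CpG in capitals, at chr11:96075632-96075881 on the minus strand for Atp5g1 and chr15:102671048-102671297 on the minus strand for Atp5g2.
Atp5g1: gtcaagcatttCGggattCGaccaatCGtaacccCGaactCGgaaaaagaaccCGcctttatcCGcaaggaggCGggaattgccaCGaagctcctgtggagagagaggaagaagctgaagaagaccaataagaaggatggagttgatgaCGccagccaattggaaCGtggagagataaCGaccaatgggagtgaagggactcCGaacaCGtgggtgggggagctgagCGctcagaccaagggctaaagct
Atp5g2: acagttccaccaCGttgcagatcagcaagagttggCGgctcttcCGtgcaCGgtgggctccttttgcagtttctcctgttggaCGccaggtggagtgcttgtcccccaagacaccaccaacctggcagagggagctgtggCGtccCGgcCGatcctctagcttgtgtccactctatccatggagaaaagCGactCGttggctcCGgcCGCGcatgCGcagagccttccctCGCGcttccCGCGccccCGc
The Atp5g1 stretch holds 15 CpG at 53.6% G and C, and the Atp5g2 stretch 19 at 62.8%, so both are CpG-rich.

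Atp5g1 read 12.43 and 12.49 in A-iPSC-ZSCAN10, 11.78 and 11.19 in A-iPSC, 11.79 and 12.55 in Y-iPSC, 12.47 and 12.48 in ESC, 12.20, 12.05 and 12.13 in A-SC, and 12.15, 11.74 and 12.16 in Y-SC. A-iPSC-19 was the lowest array, and A-iPSC-16 lay level with the lower Y-iPSC array and Y-SC-16. Atp5g1 fell in A-iPSC relative to ESC by a log2 change of -0.99 ± 0.29 (limma adjusted p = 0.0212) and rose in A-iPSC-ZSCAN10 relative to A-iPSC by 0.97 ± 0.29 (adjusted p = 0.0426). Both calls were lost without A-iPSC-19, the first also without ESC-D or ESC-H and the other also without either A-iPSC-ZSCAN10 array, with adjusted p of up to 0.326.

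Atp5g2 read 11.37 and 11.31 in A-iPSC-ZSCAN10, 11.88 and 11.93 in A-iPSC, 11.36 and 10.97 in Y-iPSC, 11.05 and 10.78 in ESC, 10.56, 10.41 and 10.33 in A-SC, and 10.82, 9.86 and 10.15 in Y-SC. A-iPSC lay above all other arrays and all iPSC arrays lay above all fibroblast arrays. It was 1.47 ± 0.27 higher in A-iPSC than in A-SC (limma adjusted p = 0.00171), a call kept in every alternative. The differences of 0.89 ± 0.27 in Y-iPSC against Y-SC (adjusted p = 0.0339), 0.90 ± 0.27 in A-iPSC-ZSCAN10 against A-SC (adjusted p = 0.0352) and 0.99 ± 0.30 in A-iPSC against ESC (adjusted p = 0.0234) passed. Each of the last 3 was lost without either iPSC array of its comparison. The Y-iPSC call was also lost under median scaling, with export format as a block, with only the compared arrays and without the 1-decimal arrays. Its smallest log2 change over all alternatives was 0.35. The A-iPSC-ZSCAN10 call was also lost with export format as a block and without the 1-decimal arrays. Median scaling also lost the A-iPSC call against ESC. Atp5g3 stayed between 13.26 and 13.80 and passed in no comparison, although its A-iPSC arrays were its lowest.

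Atp5e, the epsilon subunit of the central stalk, read 7.76 and 7.94 in A-iPSC-ZSCAN10, 8.65 and 8.80 in A-iPSC, 7.36 and 7.61 in Y-iPSC, 6.88 and 7.15 in ESC, 7.46, 7.36 and 7.13 in A-SC, and 7.50, 7.28 and 6.98 in Y-SC. A-iPSC lay above all other arrays, and A-iPSC-ZSCAN10 lay between A-iPSC and the rest. It was 1.71 ± 0.24 higher in A-iPSC than in ESC (limma adjusted p = 0.000355), 1.41 ± 0.22 higher than in A-SC (adjusted p = 0.000605) and 1.24 ± 0.24 higher than in Y-iPSC (adjusted p = 0.00862). The calls against ESC and A-SC held in every alternative, and the call against Y-iPSC was lost without A-iPSC-19 (adjusted p = 0.0861). Atp5e was lower in A-iPSC-ZSCAN10 relative to A-iPSC at -0.87 ± 0.24 (adjusted p = 0.0313) and higher in A-iPSC-ZSCAN10 than in ESC at 0.83 ± 0.24 (adjusted p = 0.0445), both lost without any 1 array of the comparison, with adjusted p of up to 0.228.

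Among the remaining ATP synthase members, Atp5d, the delta subunit of the central stalk, was 0.88 ± 0.23 higher in A-iPSC than in A-SC (limma adjusted p = 0.0134), 0.89 ± 0.23 higher in A-iPSC-ZSCAN10 than in A-SC (adjusted p = 0.0207) and 0.81 ± 0.26 higher in A-iPSC than in ESC (adjusted p = 0.0296). Atp5a1, the alpha subunit of the catalytic head, was 1.04 ± 0.31 higher in A-iPSC (adjusted p = 0.0236) and 0.96 ± 0.31 higher in A-iPSC-ZSCAN10 (adjusted p = 0.0488) than in A-SC. The Atp5d call of A-iPSC against A-SC was lost without A-iPSC-19 and with export format as a block. The Atp5d call of A-iPSC against ESC was lost without any 1 of the 4 arrays and under median scaling. The Atp5d call of A-iPSC-ZSCAN10 was lost without either of its own arrays or A-SC-1.4, and with export format as a block. Both Atp5a1 calls were lost without the uncoded A-SC array, A-SC-1.4 or either iPSC array of the comparison, with adjusted p of up to 0.22. Atp5l, the g subunit, was 0.94 ± 0.30 higher in A-iPSC than in ESC (adjusted p = 0.0314), lost without any 1 of the 4 arrays (up to 0.177). Atp5j, a peripheral stalk subunit, had probes that disagreed. Its dimmer probe was lower in A-iPSC than in A-SC at -0.86 ± 0.26 (adjusted p = 0.0242) and in Y-iPSC than in Y-SC at -0.82 ± 0.26 (adjusted p = 0.0394), while its brighter probe passed in no comparison. Those calls were lost without either iPSC array or the uncoded fibroblast array of the comparison (adjusted p of up to 0.222).

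**Figure D5:**
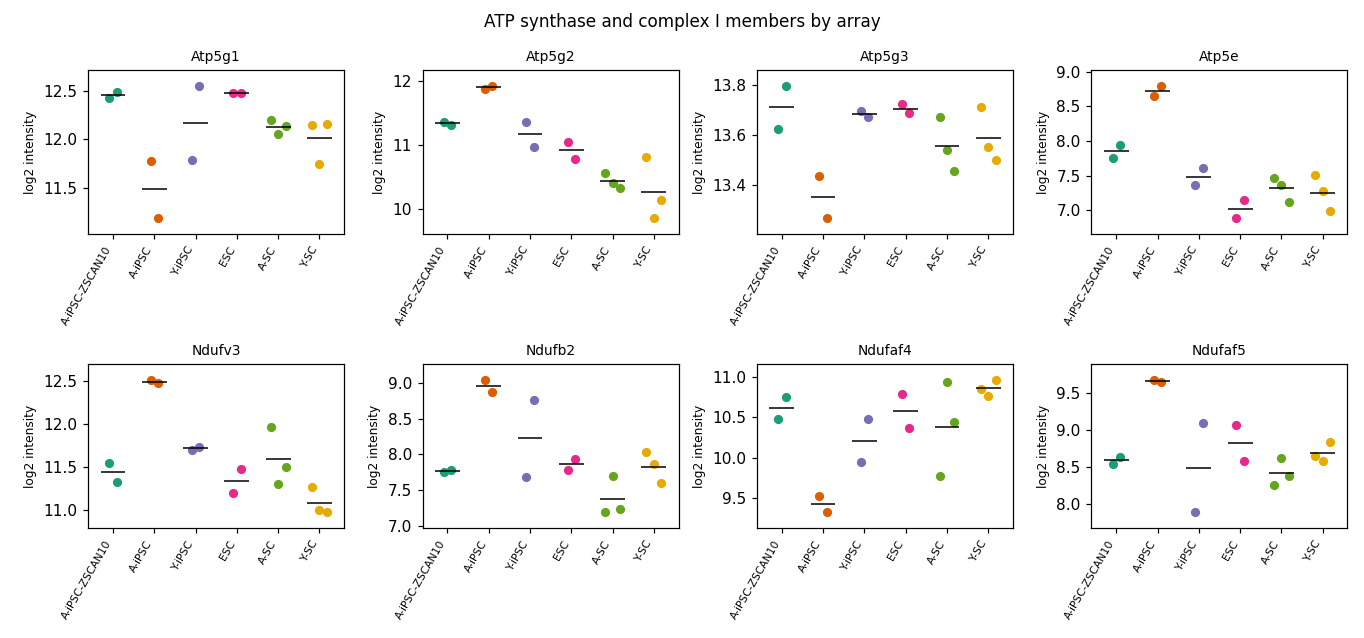
Log2 intensity of 4 ATP synthase genes and 4 complex I genes on each array (points) with the group mean (line); groups run from A-iPSC-ZSCAN10, A-iPSC and Y-iPSC to ESC, A-SC and Y-SC, each panel with its own y range. The A-iPSC points are the highest of Atp5g2, Atp5e, Ndufv3, Ndufb2 and Ndufaf5 and the lowest of Atp5g3 and Ndufaf4.

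Complex I changed in a few accessory subunits and assembly factors. Ndufv3, an accessory subunit of the flavoprotein part that takes up NADH, read 11.54 and 11.32 in A-iPSC-ZSCAN10, 12.51 and 12.47 in A-iPSC, 11.70 and 11.73 in Y-iPSC, 11.20 and 11.48 in ESC, 11.96, 11.30 and 11.50 in A-SC, and 11.26, 10.99 and 10.97 in Y-SC. A-iPSC lay above all other arrays. Ndufv3 was 1.16 ± 0.25 higher in A-iPSC than in ESC (limma adjusted p = 0.0047), which held in every alternative, and 0.90 ± 0.23 higher than in A-SC (adjusted p = 0.0107), which was lost without A-iPSC-16 or A-iPSC-19. The call against A-SC was also lost with export format as a block, with only the compared arrays and without the 1-decimal arrays. Its smallest log2 change over all alternatives was 0.53. Ndufv3 was lower in A-iPSC-ZSCAN10 relative to A-iPSC at -1.06 ± 0.25 (adjusted p = 0.0162), lost without any 1 of the 4 arrays and under median scaling. A second bright probe moved likewise against ESC (1.25 ± 0.31, adjusted p = 0.00886) and A-SC (1.08 ± 0.28, adjusted p = 0.0119), and a further, dim probe was 0.90 ± 0.25 higher in Y-iPSC than in Y-SC (adjusted p = 0.0237). The calls of the second probe were lost without A-iPSC-16 and that of the dim probe without either Y-iPSC array, Y-SC-16 or Y-SC-17. The second probe's call against A-SC and the dim probe's call were also lost with export format as a block and with only the compared arrays. Both were lost without the 1-decimal arrays too.

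Ndufb2, an accessory subunit of the membrane arm, read 7.75 and 7.78 in A-iPSC-ZSCAN10, 9.04 and 8.88 in A-iPSC, 7.69 and 8.76 in Y-iPSC, 7.78 and 7.94 in ESC, 7.19, 7.70 and 7.23 in A-SC, and 8.03, 7.87 and 7.60 in Y-SC. A-iPSC was highest and Y-iPSC-4 came close to it, while Y-iPSC-12 did not. Ndufb2 was 1.58 ± 0.30 higher in A-iPSC than in A-SC (limma adjusted p = 0.00194), kept in every alternative, and 1.10 ± 0.33 higher than in ESC (adjusted p = 0.0224). It was lower in A-iPSC-ZSCAN10 relative to A-iPSC at -1.19 ± 0.33 (adjusted p = 0.0298). The calls against ESC and in A-iPSC-ZSCAN10 were lost without any 1 of their 4 arrays, with adjusted p of up to 0.138. Of the other membrane arm subunits, Ndufb4 was higher in A-iPSC than in ESC (1.59 ± 0.41, adjusted p = 0.0118). Ndufb11 was higher in A-iPSC than in A-SC (1.71 ± 0.42, adjusted p = 0.00911) and in Y-iPSC than in Y-SC (1.44 ± 0.42, adjusted p = 0.0282). Its dimmer probe passed in no comparison. Relative to the mean of its group means, the brighter probe stood at -0.18 on the uncoded A-SC array. It stood at -1.12 and -1.19 on A-SC-1.3 and A-SC-1.4. In Y-SC it stood at 0.09 on the uncoded array and at -1.13 and -1.02 on Y-SC-16 and Y-SC-17. Both calls were lost without the 4 1-decimal arrays. The Y-SC call was also lost with export format as a block, with only the compared arrays and without the filter. Without A-iPSC-19 the A-SC call of Ndufb11 had an adjusted p of 0.0771, and its Y-SC call was lost without Y-iPSC-4, Y-SC-16 or Y-SC-17 (up to 0.234). The Ndufb4 call was lost without A-iPSC-16 or ESC-D (up to 0.101).

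Assembly factors of complex I moved in both directions in A-iPSC. Ndufaf4 read 10.48 and 10.75 in A-iPSC-ZSCAN10, 9.52 and 9.32 in A-iPSC, 9.95 and 10.48 in Y-iPSC, 10.78 and 10.37 in ESC, 9.77, 10.94 and 10.44 in A-SC, and 10.85, 10.77 and 10.97 in Y-SC. Both A-iPSC arrays were below all others. Ndufaf4 rose in A-iPSC-ZSCAN10 relative to A-iPSC by 1.20 ± 0.35 (limma adjusted p = 0.0363), and in A-iPSC it was lower than in ESC at -1.16 ± 0.35 (adjusted p = 0.0223) and than in A-SC at -0.96 ± 0.32 (adjusted p = 0.0351). All 3 calls were lost without A-iPSC-16 or A-iPSC-19. The call against A-SC was also lost without the filter, with export format as a block, with only the compared arrays and without the 1-decimal arrays. Its smallest log2 change over all alternatives was -0.35. The A-iPSC-ZSCAN10 call was also lost without the filter.

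Ndufaf5, a factor that modifies a complex I subunit during assembly, had 2 probes that moved the same way in A-iPSC. The dimmer read 6.22 and 6.36 in A-iPSC-ZSCAN10, 7.90 and 8.01 in A-iPSC, 6.40 and 6.50 in Y-iPSC, 6.50 and 6.47 in ESC, 6.69, 6.65 and 5.68 in A-SC, and 6.92, 6.43 and 6.89 in Y-SC. A-iPSC stood apart from all other arrays. It was 1.61 ± 0.30 higher in A-iPSC than in A-SC (limma adjusted p = 0.00163) and 1.47 ± 0.32 higher than in ESC (adjusted p = 0.00494), and both calls were kept in every alternative. It was also 1.50 ± 0.32 higher than in Y-iPSC (adjusted p = 0.014), lost without A-iPSC-16, A-iPSC-19 or Y-iPSC-4 (up to 0.109), and lower in A-iPSC-ZSCAN10 relative to A-iPSC at -1.67 ± 0.32 (adjusted p = 0.00608), lost without A-iPSC-19 (0.0558). The brighter probe passed only in A-iPSC against A-SC, at 1.24 ± 0.31 (adjusted p = 0.00991), with 9.68 and 9.65 in A-iPSC against 8.27, 8.62 and 8.38 in A-SC, and was lost without A-iPSC-16 or A-iPSC-19 (up to 0.0598). Its Y-iPSC arrays, at 7.89 and 9.11, were far apart.

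The core of complex I, which carries the flavin and iron-sulfur clusters, moved only against fibroblasts. Ndufv1, which binds NADH, was 0.87 ± 0.24 higher in A-iPSC-ZSCAN10 than in A-SC (limma adjusted p = 0.0246), with 12.26 and 12.24 in A-iPSC-ZSCAN10 against 11.39, 11.45 and 11.29 in A-SC. Ndufs8 was 0.89 ± 0.29 higher in the same comparison (adjusted p = 0.0447), and Ndufv2 was 0.80 ± 0.21 higher in A-iPSC than in A-SC (adjusted p = 0.0121). Ndufv1 was lost without either A-iPSC-ZSCAN10 array or A-SC-1.4, Ndufs8 without those or A-SC-1.3, and Ndufv2 without A-iPSC-16, with adjusted p of up to 0.21. Ndufs5-ps, a pseudogene by its symbol whose probe was not tested for binding of Ndufs5 transcripts, was lower in A-iPSC than in A-SC at -0.96 ± 0.26 (adjusted p = 0.016), lost without A-iPSC-19 or A-SC-1.4 (up to 0.148).

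Ndufa subunits and a further assembly factor passed in some of the comparisons with ESC or fibroblasts. Ndufa2 read 12.30 and 12.17 in A-iPSC-ZSCAN10, 12.21 and 11.80 in A-iPSC, 12.23 and 12.49 in Y-iPSC, 11.34 and 11.33 in ESC, 12.02, 12.21 and 12.50 in A-SC, and 12.09, 12.09 and 12.43 in Y-SC. ESC lay below all other arrays, fibroblasts included. It was 1.02 ± 0.25 higher in Y-iPSC than in ESC (limma adjusted p = 0.0177) and 0.90 ± 0.25 higher in A-iPSC-ZSCAN10 (adjusted p = 0.0342). Ndufa6, of the LYR motif family, was 0.98 ± 0.26 higher in A-iPSC than in ESC (adjusted p = 0.0118), 0.87 ± 0.23 higher in A-iPSC than in A-SC (adjusted p = 0.0138) and 0.71 ± 0.23 higher in Y-iPSC than in Y-SC (adjusted p = 0.0477). Ndufa8 was 0.77 ± 0.22 higher in A-iPSC-ZSCAN10 than in ESC (adjusted p = 0.0398), and Ndufaf7, an arginine methyltransferase of assembly, 0.85 ± 0.27 higher in Y-iPSC than in Y-SC (adjusted p = 0.0401). These calls were lost in at least 1 fit without ESC-D, ESC-H, A-iPSC-19 or Y-iPSC-4, with adjusted p of up to 0.291.

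Complex II, which is also an enzyme of the citric acid cycle, showed single calls. Sdhaf1, which helps insert iron-sulfur clusters into Sdhb, read 9.73 and 9.94 in A-iPSC-ZSCAN10, 9.62 and 9.20 in A-iPSC, 9.48 and 9.93 in Y-iPSC, 8.48 and 8.98 in ESC, 9.47, 9.62 and 9.09 in A-SC, and 9.63, 9.85 and 9.69 in Y-SC. As with Ndufa2, both ESC arrays were below all others. Sdhaf1 was 1.11 ± 0.28 higher in A-iPSC-ZSCAN10 than in ESC (limma adjusted p = 0.0232) and 0.98 ± 0.28 higher in Y-iPSC (adjusted p = 0.0374). Sdhd, a membrane anchor, was 1.20 ± 0.30 higher in A-iPSC than in A-SC (adjusted p = 0.0101), with 9.38 and 9.05 in A-iPSC against 8.47, 8.03 and 7.54 in A-SC. The Sdhd call was lost without A-iPSC-16 (adjusted p = 0.0878) and those of Sdhaf1 without ESC-D and others (up to 0.243). Sdhb and Sdhc passed in no comparison, and the catalytic subunit gene Sdha is not analysed here.

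Complex III had 1 call. Uqcrc2, a core subunit without a redox centre, was 0.67 ± 0.18 higher in A-iPSC than in A-SC (limma adjusted p = 0.0153), with 12.82 and 12.75 in A-iPSC against 11.99, 12.16 and 12.19 in A-SC. It was lost without A-iPSC-16 or A-iPSC-19 (adjusted p of up to 0.0872). All 7 tested probes of the complex had a positive log2 difference in that comparison, between 0.05 and 0.67, and the others did not pass. Of all 14742 tested probes, 7670 were positive there.

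Taken over all members, past the threshold or not, the differences leaned one way in 6 comparisons. Those with ESC share the ESC arrays, and those of A-iPSC and A-iPSC-ZSCAN10 with A-SC share the A-SC arrays. The median log2 difference of the 98 members was 0.27 in A-iPSC against ESC (75 positive), where the median of all tested probes was -0.02. It was 0.26 in Y-iPSC against ESC (71 positive, all probes -0.03) and 0.21 in A-iPSC-ZSCAN10 against ESC (75 positive, all probes -0.003). Against fibroblasts it was 0.25 in A-iPSC (78 positive, all probes 0.04), 0.19 in Y-iPSC (78 positive, all probes 0.02) and 0.23 in A-iPSC-ZSCAN10 (81 positive, all probes 0.05). Of all 14742 tested probes, 7218, 7127 and 7342 were positive in the comparisons with ESC, in the order given. In those with fibroblasts 7670, 7591 and 7809 were. In A-iPSC against Y-iPSC the median was -0.02 with 48 positive, in A-iPSC-ZSCAN10 against A-iPSC -0.04 with 47, in A-iPSC-ZSCAN10 against Y-iPSC -0.04 with 46 and in A-SC against Y-SC -0.03 with 44. With array medians scaled in place of quantile normalisation, the Y-iPSC against Y-SC median turned to -0.085 (all probes -0.045), so that lean depends on the scaling. Under the same scaling the A-iPSC against ESC median was 0.125 (all probes -0.06), that of Y-iPSC against ESC 0.12 (all probes -0.03) and that of A-iPSC-ZSCAN10 against ESC 0.31 (all probes 0.10). That scaling also moved the median of all probes past 0.1 in A-iPSC-ZSCAN10 against A-iPSC (0.16, members 0.205), against Y-iPSC (0.12, members 0.19) and against A-SC (0.15, members 0.37), and in A-SC against Y-SC (-0.12, members -0.21).

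By complex, the median difference of A-iPSC against ESC was 0.26 in complex I, 0.13 in complex II, 0.19 in complex III, 0.49 in complex IV and 0.26 in complex V. Against A-SC it was 0.29 in complex I, 0.16 in complex II, 0.18 in complex III, 0.275 in complex IV and 0.29 in complex V for A-iPSC. In A-iPSC-ZSCAN10 against A-SC, 15 of the 16 complex V probes were positive with a median of 0.30, and complex II had a median of 0.41. Of all 14742 tested probes, 7809 were positive in that comparison. Single arrays differed by as much as the groups. The median member stood 0.30 above the mean of its 6 group means on Y-iPSC-4 and -0.07 relative to it on Y-iPSC-12, and 0.26 above it on A-iPSC-16 and 0.01 on A-iPSC-19. The uncoded fibroblast array lay above both 1-decimal arrays of its group, in A-SC and in Y-SC, for 34 of 98 members (34.7%), against 14.6% of all tested probes, and below them for 11 (11.2%), against 17.1%. Ndufb10 (1.25), Atp5h (1.24) and Ndufb11 (1.07) differed most in that direction. Without the 4 1-decimal arrays, 10 members passed in A-iPSC against A-SC, 2 in Y-iPSC against Y-SC and 3 in A-iPSC-ZSCAN10 against A-SC.

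Genes that act around the complexes were counted in the same fit. These lists were chosen with results of the data known and are described by counts. Of 98 tested probes for the mitochondrial ribosome, which translates the mitochondrially encoded subunits, 20 rose and 1 fell in A-iPSC-ZSCAN10 relative to A-iPSC, with a median log2 difference of 0.45. Those are 20.4% and 1.02% of the list, against 7.33% and 8.37% of all tested probes. In A-iPSC against ESC 7 were higher (7.14%, background 17.2%) and 35 lower (35.7%, background 17.7%), with a median of -0.34. In A-iPSC-ZSCAN10 against A-SC 21 were higher (21.4%, background 11.2%) and 1 lower (1.02%, background 9.88%), with a median of 0.58. The subunit probes had medians of -0.04, 0.27 and 0.23 in those 3 comparisons, as above. In A-iPSC against Y-iPSC, 3 ribosome probes were higher (3.06%, background 6.04%) and 7 lower (7.14%, background 4.1%). No probe for a mitochondrially encoded subunit was named on the array.

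Among 19 probes for regulators of mitochondrial gene expression, 2 were higher (10.5%, background 17.2%) and 7 lower (36.8%, background 17.7%) in A-iPSC than in ESC. Polrmt, the mitochondrial RNA polymerase, was lower at -1.55 ± 0.21 (limma adjusted p = 0.00027), and Tfam, which packages and transcribes mitochondrial DNA, at -1.31 ± 0.28 (adjusted p = 0.00445). Esrra, a nuclear receptor that drives oxidative genes, was higher at 1.45 ± 0.25 (adjusted p = 0.00114), and Esrrb, a pluripotency factor of the same family, averaged 4.47 in A-iPSC, where no array detected it, against 12.74 in ESC. Polrmt was also lower in A-iPSC than in Y-iPSC at -0.77 ± 0.21 (adjusted p = 0.0398) and higher in A-iPSC-ZSCAN10 relative to A-iPSC at 1.31 ± 0.21 (adjusted p = 0.0023). Its group means were 10.34 in A-iPSC-ZSCAN10, 9.04 in A-iPSC, 9.81 in Y-iPSC, 10.59 in ESC, 10.095 in A-SC and 10.30 in Y-SC.

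Of 23 probes for complex IV assembly, 1 was higher (4.35%, background 6.04%) and 1 lower (4.35%, background 4.1%) in A-iPSC than in Y-iPSC, and 1 rose (4.35%, background 7.33%) and 3 fell (13%, background 8.37%) in A-iPSC-ZSCAN10 relative to A-iPSC. Higd1a, a hypoxia-induced protein that binds complex IV, averaged 4.52 in A-iPSC-ZSCAN10, 6.845 in A-iPSC, 4.81 in Y-iPSC, 4.55 in ESC, 4.72 in A-SC and 4.605 in Y-SC. It was detected on both A-iPSC arrays and 1 Y-iPSC array and on none of the other groups, so it entered the test only through A-iPSC, where it is high, and had to differ there. In A-iPSC-ZSCAN10 its level was below that of A-iPSC by at least 3.57-fold. Surf1, needed for heme insertion into complex IV, was also lower in A-iPSC-ZSCAN10 relative to A-iPSC at -1.28 ± 0.30 (adjusted p = 0.0157). Of 9 probes for pyruvate entry into mitochondria, 0 rose (background 7.33%) and 3 fell (33.3%, background 8.37%) in A-iPSC-ZSCAN10 relative to A-iPSC. They were the pyruvate dehydrogenase kinases Pdk3 (-1.76 ± 0.40, adjusted p = 0.0125), Pdk2 (-1.61 ± 0.36, adjusted p = 0.0116) and Pdk1 (-1.298 ± 0.34, adjusted p = 0.0249). In A-iPSC against A-SC, Pdk1 was 3.32 ± 0.31 higher (adjusted p = 1.66e-05). Of 15 citric acid cycle probes, 0 passed in A-iPSC against Y-iPSC or in A-iPSC-ZSCAN10 against A-iPSC, and 4 were higher (26.7%, background 17.6%) and 0 lower (background 15.4%) in A-iPSC against A-SC, with Suclg2 at 1.435 ± 0.28 (adjusted p = 0.0023) and Idh3g at 0.87 ± 0.22 (adjusted p = 0.00947). Of 23 probes for electron carriers and coenzyme Q synthesis, 6 were higher (26.1%, background 17.2%) and 2 lower (8.7%, background 17.7%) in A-iPSC than in ESC, the higher ones for Coq2, Etfa and Etfdh and the lower ones for Coq7 and Cyc1. Of 6 probes for complex III assembly, 3 were higher (50%, background 17.6%) and 0 lower (background 15.4%) in A-iPSC than in A-SC, for Bcs1l and Uqcc1.

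Upstream sequence was at hand for 74 of the 89 member genes, from RefSeq (GRCm38.p6). In the 250 bases before the start, the median member had 14 CpG dinucleotides, against 6 for all 27025 genes in the table. Cox7a1, Cox8b and Ndufc2 were the only members with under 5. The letters GCATGCGC, the core of the binding motif of NRF1, a factor known to drive respiratory genes, occurred on either strand in 8 members (10.8%), against 2.56% of all genes. They were Atp5g2, Atp5k, Atp5l, Cox6a1, Ndufa6, Ndufa8, Ndufaf4 and Sdhb. The estrogen-related receptor (ERR) motif AAGGTCA occurred in 4 members (5.41%), Atp5g3, Atp5l, Ndufb2 and Ndufb4, against 4.7% of all genes. The cyclic AMP response element TGACGTCA occurred in 3 members (4.05%, against 1.77%), the ETS motif CCGGAAGT in 3 (4.05%, against 3.23%) and the YY1 motif AAGATGGC in 1 (1.35%, against 1.83%). The NRF1, cyclic AMP response and ETS letters each include a CpG, and members hold more CpG in this window than all genes. Shares among genes of like CpG number were not computed, so these shares cannot be told apart from base composition. A match describes letters in this window and nothing about binding. Each motif was searched on both strands, Atp5l held both NRF1 and ERR letters, and Ndufb2 both ERR and cyclic AMP response letters.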

How the data were processed

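RNA of 14 samples was measured on Illumina MouseRef-8 v2.0 bead arrays. Per the file headers, the authors deposited a non-normalized table with 1 intensity column and 1 detection p-value column per array, over 25697 probes. Whether background had been subtracted from the deposited intensity values is not given in the sources used here. A second table deposited by the authors holds normalized intensity values on a linear scale, and the submitters' processing notes name lumi without a version. From the non-normalized table, neqc of limma 3.58.1 (R 4.3.3) was run with negative-control levels estimated through the detection p column and an offset of 16, which corrects background, normalizes by quantiles and gives log2 values. The filter kept a probe if some group had all its arrays at a detection p under 0.05. Means of the 6 groups were fitted with lmFit and eBayes over all 14 arrays (8 residual and 3.633 prior degrees of freedom), and 11 contrasts were adjusted by Benjamini-Hochberg over the 14742 tested probes. Errors beside differences are standard errors. A lower bound on a fold ("at least") was used where no array of a group detected the probe. The number of arrays limits the precision.

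Symbols came from the platform annotation, with 1 symbol for 23978 probes and none for 1719. Where a gene had several tested probes (14 genes), the brightest stands for it. Named were isoform sets, in each comparison up to 6 members with the largest rise and 6 with the largest fall among those past the threshold whose groups did not overlap, and up to 4 genes of each pathway list; other members past the threshold are named beyond that rule, after their values were seen. The members and the lists were chosen with earlier results of these data known. Alternatives were the authors' normalized values, median scaling, no filter, export format as a block, only the compared arrays, each array left out in turn, and, added after seeing the data, leaving out the 4 arrays with 1 decimal. The fit was tested on simulated data.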

Additional observations from a re-analysis of the deposited data

Results flagged for a closer look

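The increase of Cox7a1 from fibroblasts differed between the lines from aged tail tip and those from embryonic skin by a test of the difference itself. It was 4.58 log2 units in A-iPSC against A-SC and 2.02 in Y-iPSC against Y-SC, a difference of 2.55 ± 0.49 (SE, limma adjusted p = 0.0163). The dimmer probe of Ndufaf5 was also picked out by that test, with 1.61 in A-iPSC against A-SC, -0.29 in Y-iPSC against Y-SC and a difference of 1.91 ± 0.42 (limma adjusted p = 0.0289). Fitted on only the arrays compared, neither passed, with adjusted p of 0.0507 for Cox7a1 and 0.0837 for Ndufaf5. The Ndufaf5 call was lost without A-iPSC-16, A-iPSC-19, Y-iPSC-4, the uncoded Y-SC array or Y-SC-17, with adjusted p of up to 0.124.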

How the results depend on the processing

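No member that passed changed direction under any alternative run. Counts of members past the threshold moved as follows. With the authors' normalized values, which differ in background handling and possibly in other steps, there were 5 calls in A-iPSC against Y-iPSC (3 before), 14 in A-iPSC-ZSCAN10 against A-iPSC (8), 1 in A-iPSC-ZSCAN10 against Y-iPSC (0), 7 in Y-iPSC against ESC (2), 11 in A-iPSC-ZSCAN10 against ESC (4) and 12 in A-iPSC-ZSCAN10 against A-SC (7). With median scaling there were 0 in Y-iPSC against ESC, 6 in Y-iPSC against Y-SC (10) and 11 in A-iPSC-ZSCAN10 against A-SC, and the 7 in A-iPSC-ZSCAN10 against A-iPSC split into 4 higher and 3 lower, against 2 higher and 6 lower under quantile normalization. The 6 of Y-iPSC against Y-SC split into 4 higher and 2 lower, against 8 and 2. Without the filter there were 7 in A-iPSC-ZSCAN10 against ESC. With export format as a block there were 5 in A-iPSC against Y-iPSC, 4 in Y-iPSC against ESC, 7 in A-iPSC-ZSCAN10 against ESC, 5 in Y-iPSC against Y-SC (2 higher, 3 lower), 11 in A-iPSC against A-SC (21) and 1 in A-iPSC-ZSCAN10 against A-SC. With only the compared arrays there were 1 in A-iPSC against Y-iPSC, 14 in A-iPSC-ZSCAN10 against A-iPSC, 1 in Y-iPSC against ESC, 9 in A-iPSC-ZSCAN10 against ESC, 2 in Y-iPSC against Y-SC and 0 for the difference between the A and Y increases (2). Without the 4 arrays of 1-decimal format, an alternative chosen after seeing the data, there were 6 in A-iPSC against Y-iPSC, 1 in A-iPSC-ZSCAN10 against Y-iPSC, 5 in Y-iPSC against ESC, 2 in Y-iPSC against Y-SC, 10 in A-iPSC against A-SC and 3 in A-iPSC-ZSCAN10 against A-SC. Leaving out each array in turn gave 1 to 5 in A-iPSC against Y-iPSC, 1 to 3 in A-iPSC-ZSCAN10 against A-iPSC, 0 to 1 in A-iPSC-ZSCAN10 against Y-iPSC, 0 to 7 in Y-iPSC against ESC, 6 to 7 in A-iPSC against ESC (17), 0 to 1 in A-iPSC-ZSCAN10 against ESC, 2 to 11 in Y-iPSC against Y-SC, 9 to 24 in A-iPSC against A-SC, 1 to 8 in A-iPSC-ZSCAN10 against A-SC, and 0 to 3 for the difference between increases. A-SC against Y-SC stayed at 0 in every alternative run. Fewer arrays leave fewer degrees of freedom; the cause of the other moves was not tested.

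No paired analysis was possible because the clone codes of the compared groups share fewer than 2 numbers. With 2 or 3 arrays a group, the typical 95% interval reached 0.611 log2 units to either side between iPSC groups and 0.499 between fibroblast groups, and smaller differences could not be told from 0 for the typical member. Probes near background, such as Cox6a2 and the dimmer Cox6b2 probe, have only bounds where they were not detected.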
